A study of Saccharomyces cerevisiae with 26 samples.

Results

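Entry of wild-type yeast into the reductive charging phase (RC) was followed in 4 RNA libraries, 2 taken at time point 5 (RC) and 2 at time point 4 (late reductive building, RB), of the 26 samples of the study. They were chosen by their labels alone, as all RNA libraries of wild type at these time points. The study grew budding yeast in a continuous culture in which the cells go through a metabolic cycle, and sampled 5 points of it: early and late oxidative phase (OX), early and late RB, and RC. The wild type was CEN.PK, and the same points were sampled in a CEN.PK strain with the TAF14[W81A] allele, a point mutation of a subunit shared by several transcription and chromatin complexes. Each genotype and time point had RNA libraries A and B, 20 in all, and 6 ChIP libraries came from early and late RB. The labels call A and B replicates without saying that they are separate cultures, so p-values measure only the spread between these samples, which may be technical. The labels name no other difference between the genotypes.

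In the yeast metabolic cycle, the oxidative phase is known as the time of fast respiration, when genes for ribosomes, amino acids and sulfur metabolism are expressed. Reductive building is known for mitochondrial genes, histones and DNA replication, and reductive charging for fatty acid oxidation, storage carbohydrates, heat shock proteins and autophagy before the next oxidative burst. The step from late RB to RC is thus the last one sampled before the cycle begins again.

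Values are scaled reads, that is, the whole reads recovered for each library from the deposited levels, put on the authors' common library scale and not divided by gene length. They compare a gene between libraries, not genes with each other. The libraries of a group are called 1 and 2, because the recovery does not tell A from B. Counted over the 5440 genes whose reads were unambiguous in every group, the RC libraries held 2765463 and 2023677 reads and the late RB libraries 3192998 and 2826298. The libraries of a pair correlated at a Pearson r of 0.992 in RC and 0.993 in late RB across genes, with a median SD between them of 0.0623 and 0.0613 (log2). Log2 changes are limma estimates of RC minus late RB ± SE (2 libraries per group), and a gene counts as called where the adjusted p (Benjamini-Hochberg over the 5986 genes tested) lies under 0.05. RNA comes from whole cultures, so fewer cells in a state and less RNA per cell cannot be told apart. The RNA kit was directional, but whether counting used the strand is not given in the sources used here, so reads of overlapping or antisense genes may be shared. Near-identical genes, such as pairs of ribosomal protein and histone genes, may also share reads.

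The step was large and went both ways. Of 5986 genes, 3690 (61.6%) were called, 1945 (32.5%) higher in RC and 1745 (29.2%) lower. The median change of all genes was 0.02 (log2), and 566 called genes were more than 2-fold higher in RC and 442 more than 2-fold lower. With upper-quartile scaling of the libraries the median moved to 0.11 and the calls to 2321 higher and 1398 lower, so the calls of changes of about this size depend on the scaling. The median late RB level was 168 scaled reads per kb for genes higher in RC, against 669 for genes lower in RC and 202 for genes not called. The late RB level is part of the change itself, so this is a description and not a separate finding.

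**Figure D1:**
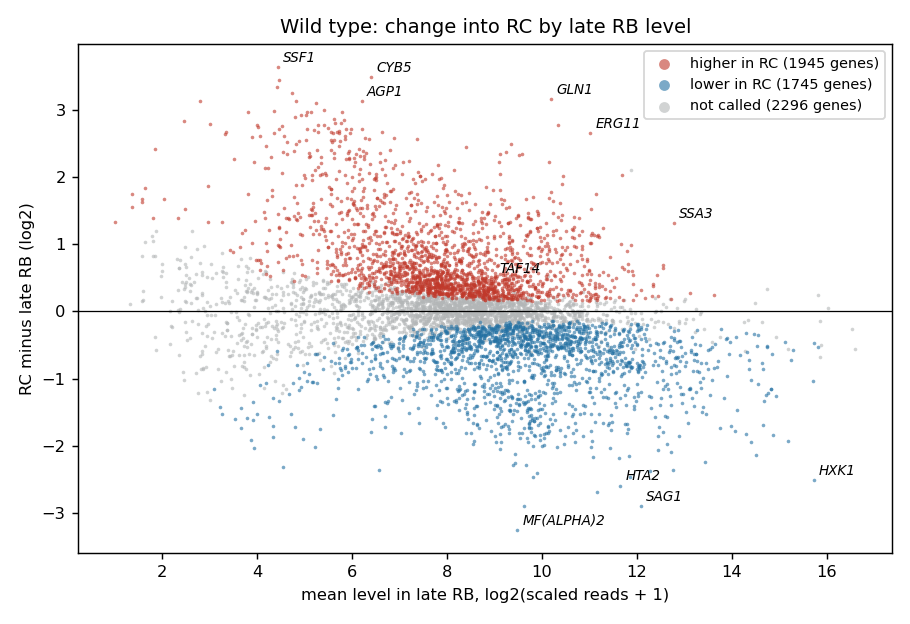
Change from late RB to RC in wild type (log2, RC minus late RB, vertical axis) against the mean level in late RB (log2 scaled reads, horizontal axis), 1 point per gene tested. Colours mark the 1945 genes called higher in RC, the 1745 called lower and those not called; the late RB level on the horizontal axis is also part of the change on the vertical axis.

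The phase labels were checked with 6 marker genes per phase. All 6 markers of the oxidative phase were called higher in RC, with a median change of 1.71, among them UTP13, NSR1, the amino acid synthesis gene ILV5 and the ribosomal protein gene RPL17B. MET6, the methionine synthase gene, had the smallest change of these, 0.32 ± 0.10, and its call was lost without RC library 2 (adjusted p = 0.0643). Of the 6 markers of reductive building, 5 were called lower in RC (median -1.76), and POL30, the DNA polymerase sliding clamp, changed by 0.27 ± 0.16 without a call. The 6 charging markers were split. Reads were known in all 4 libraries for only 2 of them. For the others at least 1 of the 2 groups entered as a mean, so their SE rests on the remaining groups. SSA3, a stress-induced Hsp70 chaperone, was higher by 1.31 ± 0.19 and the catalase gene CTT1 by 0.68 ± 0.28, while the peroxisomal beta-oxidation genes POX1 (-1.15 ± 0.41) and POT1 (-1.12 ± 0.22) were lower. HSP12, a small stress protein, changed by 0.24 ± 0.14 and ATG8, the ubiquitin-like protein of autophagosomes, by -0.32 ± 0.16, both without a call in the fit of all groups. HSP12 and ATG8 passed the threshold in a fit without time point 1, which was added after the data were seen (adjusted p = 0.0152 and 0.00162). ATG8 was also called with the contrast's libraries alone (limma adjusted p = 3.26e-05). The CTT1 call was lost when any 1 of the 4 libraries was left out (adjusted p = 0.0882 to 0.143). From early to late RB all 6 charging markers had been called higher, with a median of 2.28. These 6 markers therefore did not set time point 5 apart from time point 4 as a group, and the oxidative and building markers did.

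**Figure D2:**
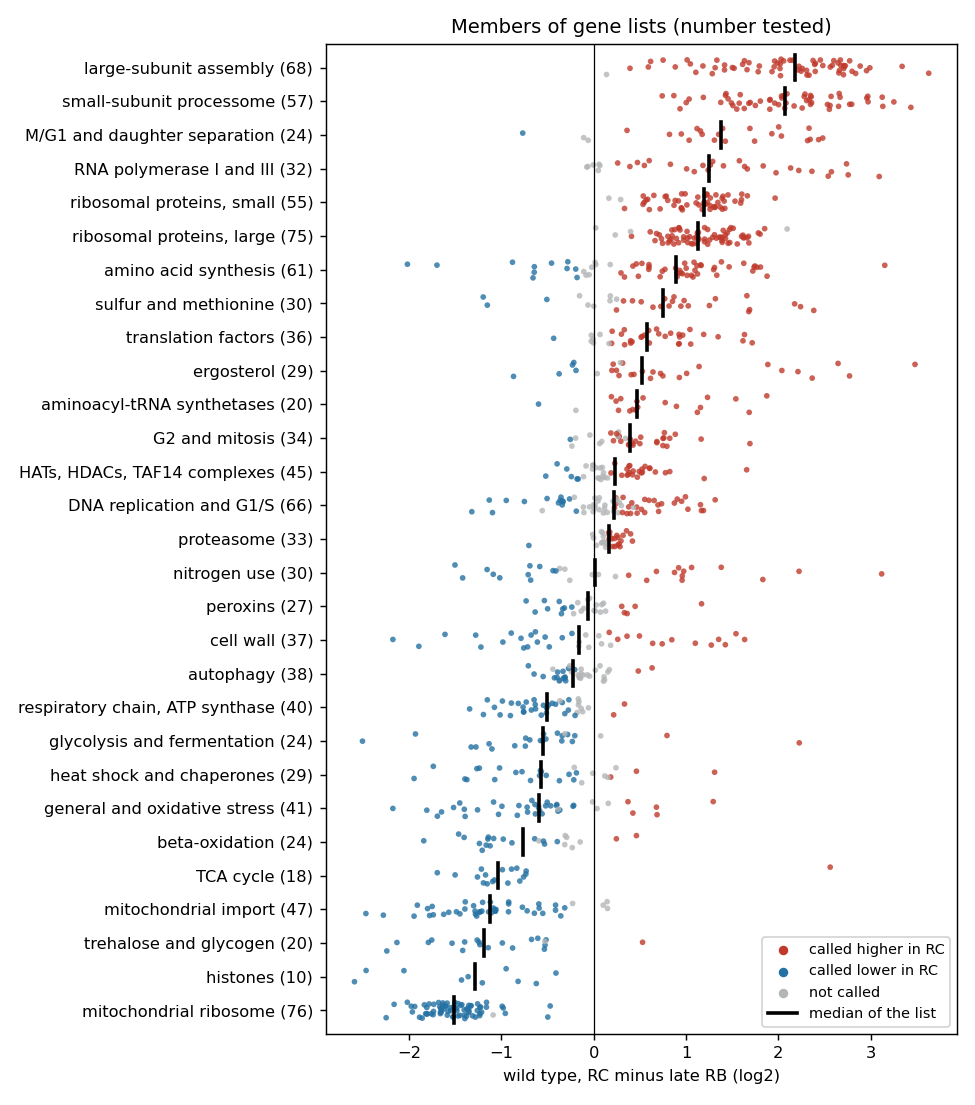
Log2 change, RC minus late RB in wild type, of the tested members of 29 gene lists, 1 point per gene, with the median of each list as a bar and the number tested beside its name. Of these lists, those of ribosome assembly lie farthest to the higher side, with medians above 2, and the mitochondrial ribosome farthest to the lower side, with a median of -1.52.

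Genes that build ribosomes had the highest list medians of the step. Assembly factors of the large subunit (LSU) were higher in RC for 67 of 68 tested members, with a median change of 2.18. All 57 members of the small subunit (SSU) processome, the particle that makes the small subunit's RNA, were higher, with a median of 2.07. In each tested member of both lists the libraries of RC and of late RB did not overlap, which was also so for 4701 of the 5699 genes with reads known in all 4 libraries (82.5%). MDN1, the large ATPase that strips factors from the pre-60S particle, was the member without a call, at 0.14. The lists were picked with these data known, so their direction is a description. Counts of members called, here and below, are to be read against the 32.5% higher and 29.2% lower of all genes.

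SSF1, a pre-60S assembly factor (YHR066W, chromosome VIII, 229335 to 230696 on sacCer3), had 273 and 255 scaled reads in the RC libraries, against 24.0 and 17.4 in the late RB libraries. Both RC libraries lay over 10 times above both late RB libraries. The change of SSF1 was 3.63 ± 0.16 (limma adjusted p = 1.57e-11). PWP2, a core subunit of the SSU processome, had 226 and 247 scaled reads in RC, against 19.2 and 22.8 in late RB, without overlap. Its change was 3.44 ± 0.14. MAK16, a pre-60S factor, changed by 3.34 ± 0.13, UTP13 of the processome by 3.25 ± 0.18, SOF1 of the processome by 3.13 ± 0.15 and the pre-60S GTPase gene NOG2 by 2.99 ± 0.15. NSR1, the yeast nucleolin, was higher by 2.34 ± 0.21. At the low end of late RB, UTP6 had 7.67 and 18.4 scaled reads, so its change of 2.96 ± 0.34 is less precise than those of the other named factors.

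The RNA polymerases that transcribe ribosomal and transfer RNA genes followed with 26 of 32 members of polymerase I and III higher, none lower, and a median of 1.25. RPA49, a polymerase I subunit, had 329 and 312 scaled reads in RC, against 41.2 and 32.5 in late RB. These did not overlap, and the change was 3.09 ± 0.16 (limma adjusted p = 9.57e-11). The catalytic core genes of polymerase I changed less, RPA135 by 2.58 ± 0.14 and RPA190 by 1.98 ± 0.09. The polymerase III subunit genes RPC82 and RPC53 were higher by 1.84 ± 0.10 and 1.66 ± 0.16. RRN3, the initiation factor of polymerase I, rose by only 0.39 ± 0.10. The 6 members without a call were all initiation factors of polymerase III: BDP1 and BRF1 of TFIIIB and TFC1, TFC3, TFC7 and TFC8 of TFIIIC, with changes between -0.08 and 0.07.

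Genes of ribosomal proteins rose too, with lower medians than the assembly lists. Of 55 tested small-subunit genes 53 were higher, with a median of 1.19, and of 75 tested large-subunit genes 71 were higher, with a median of 1.13, and none was lower in either list. RPS9A and RPS9B, a duplicated pair, changed by 1.97 ± 0.14 and 1.67 ± 0.07. RPL27B had 1584 and 1675 scaled reads in RC, against 443 and 458 in late RB, a change of 1.85 ± 0.11. Not called were RPS22B at 0.16 ± 0.08, RPS30A at 0.29, RPL41A at 0.40 ± 0.21, RPL41B at 0.23 and RPL36B at 0.02 ± 0.37, the last with 2.97 and 5.40 scaled reads in RC against 4.79 and 3.25 in late RB. RPL25 was not called either, at 2.10 ± 0.99. Its reads had a single solution in late RB only, 6998 and 538 scaled reads that lie far apart, so its test is not relied on. Many of these abundant genes had several read solutions in a group, and only 5 large-subunit genes had a single one in every group. In a fit of single-solution genes alone, 40% of those 5 were called higher, with a median of 0.40. Libraries of all 4 samples were known for 53 of the 75 large-subunit and 33 of the 55 small-subunit genes, and did not overlap for 52 and for 33, against the 82.5% of all such genes.

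Genes that feed and run translation rose as well. Translation factors were higher for 29 of 36 members (median 0.57), led by RLI1, the ribosome recycling ATPase, at 1.72 ± 0.10, and by YEF3, the fungal elongation factor 3, at 1.62 ± 0.07. YEF3 had 3938 and 4208 scaled reads in RC, against 1356 and 1296 in late RB. CAM1, an elongation factor 1B subunit, was the single translation factor called lower (-0.43 ± 0.08). Aminoacyl-tRNA synthetases were higher for 18 of 20 members (median 0.47), among them KRS1 for lysine (1.69 ± 0.11) and MES1 for methionine (1.54 ± 0.11). GUS1, the glutamyl-tRNA synthetase, was lower (-0.60 ± 0.06).

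Amino acid synthesis genes were higher for 43 of 61 members and lower for 11, with a median of 0.89. GLN1, glutamine synthetase, averaged 10444 scaled reads in RC, where its libraries could not be separated, against 1195 and 1149.8 in late RB. Its change was 3.15 ± 0.13, with an SE that rests on other groups. ASN1, an asparagine synthetase, had 1978 and 1921 scaled reads in RC, against 571 and 541 in late RB (1.81 ± 0.08). LEU9, of leucine synthesis, rose by 1.88 ± 0.21. Lower in RC were GDH3, the glutamate dehydrogenase isozyme of nonfermentative growth (-2.02 ± 0.10), BAT2, a branched-chain aminotransferase (-1.70 ± 0.10), and GLT1, glutamate synthase (-0.88 ± 0.07).

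Nitrogen transport and catabolism genes were split, with 13 of 30 higher, 11 lower and a median of 0.02. AGP1, a broad amino acid permease (YCL025C, chromosome III, 76018 to 77919), had 677 and 599.8 scaled reads in RC, against 80.5 and 65.1 in late RB. The groups did not overlap, and the change was 3.12 ± 0.09 (limma adjusted p = 4.22e-13). PUT1, proline oxidase, rose by 2.23 ± 0.13 and GAT1, a GATA activator of nitrogen genes, by 1.83 ± 0.08. MEP1, an ammonium permease, was higher by 0.96 ± 0.15, while the ammonium permeases MEP2 (-1.42 ± 0.11) and MEP3 (-0.58 ± 0.07) were lower. UGA4, a GABA permease (-1.50 ± 0.17), and DAL80, a GATA repressor (-1.16 ± 0.19), were lower too.

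Sulfur and methionine genes were higher for 21 of 30 members and lower for 3, with a median of 0.75. MUP1, the high-affinity methionine permease, had 370.4 and 412 scaled reads in RC, against 77.6 and 70.5 in late RB. These did not overlap, and the change was 2.38 ± 0.15 (limma adjusted p = 2.15e-09). MET2, which makes O-acetylhomoserine, rose by 2.24 ± 0.24 and STR3, a cystathionine beta-lyase, by 2.18 ± 0.17. The sulfate permeases went opposite ways: SUL2 was higher by 1.66 ± 0.18 and SUL1 lower (-1.15 ± 0.08). MET3, ATP sulfurylase, the entry enzyme of sulfate assimilation, was lower as well (-1.20 ± 0.10), as was the sulfite reductase subunit gene MET10 at -0.51.

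**Figure D3:**
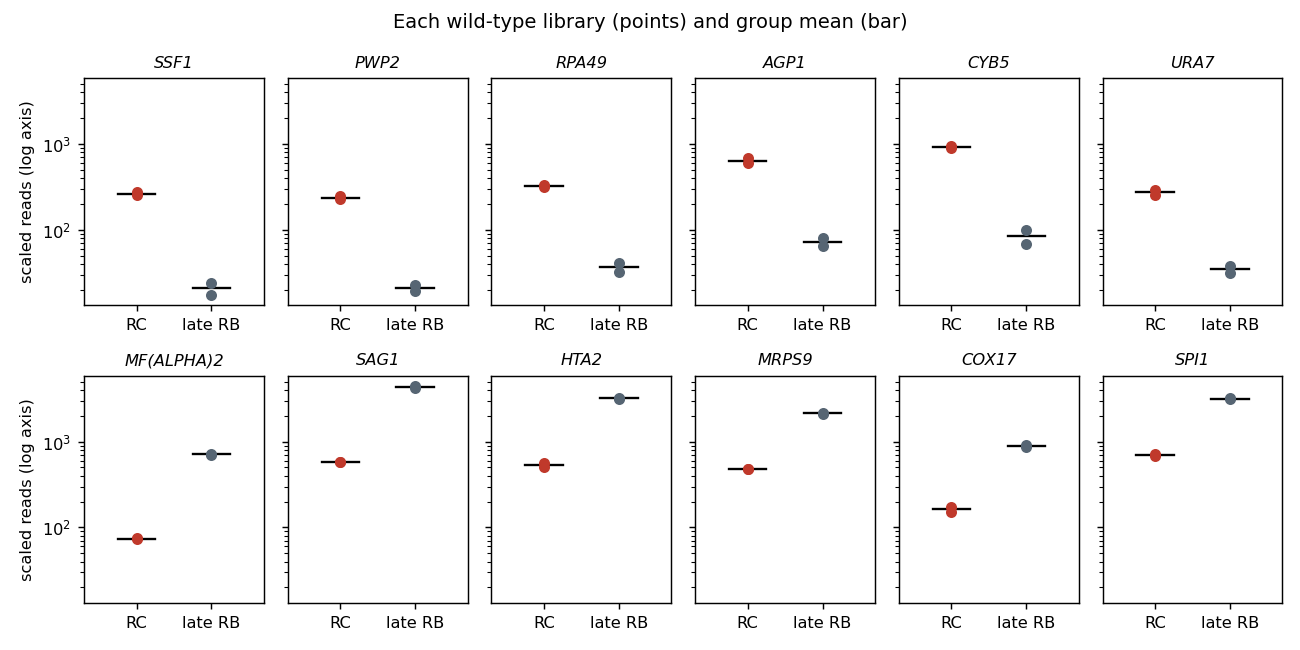
Scaled reads (log axis) of 12 genes in each library, the 2 RC libraries left of the 2 late RB libraries. The genes were chosen among those whose groups do not overlap: SSF1, PWP2, RPA49, AGP1, CYB5 and URA7 are higher in RC, and MF(ALPHA)2, SAG1, HTA2, MRPS9, COX17 and SPI1 lower.

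In ergosterol synthesis, the making of the yeast membrane sterol, 22 of 29 genes were higher and 5 lower, with a median of 0.53. CYB5, the cytochrome b5 that passes electrons to sterol enzymes, had 907 and 949.7 scaled reads in RC, against 98.7 and 68.3 in late RB. Without overlap, it changed by 3.48 ± 0.14 (limma adjusted p = 7.61e-12). ERG3, a sterol desaturase, had 3121 and 3096 scaled reads in RC, against 602 and 601 in late RB, a change of 2.37 ± 0.06. ERG25, the methyl sterol oxidase, changed by 2.77 ± 0.07, ERG11, the demethylase that azole drugs inhibit, by 2.65 ± 0.08 and ERG5, a desaturase, by 2.21 ± 0.07. Upstream of these, HMG1, the main HMG-CoA reductase, rose by 1.01 ± 0.06, while HMG2, its isozyme, was lower (-0.37 ± 0.09). ERG4, the reductase of the last step, was lower (-0.87 ± 0.07). The sterol regulator gene UPC2 was higher by 0.64 ± 0.14 and its relative ECM22 lower (-0.22 ± 0.09).

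Other lipid genes moved less as groups. Fatty acid synthesis had 4 of 16 members higher and 3 lower, and its median of -0.03 became 0.07 with upper-quartile scaling. Its elongase genes ELO3 and ELO2 were higher by 1.12 and by 0.51 ± 0.11. Of 22 phospholipid and inositol genes 11 were higher and 7 lower, with the ethanolamine kinase gene EKI1 at 1.15 and the phosphatidylinositol synthase gene PIS1 at -1.28 ± 0.10. With 1 library left out in turn, 33.3% to 45% of phospholipid genes were called higher, against 50% with all libraries. URA7, the CTP synthase that supplies phospholipid and nucleic acid synthesis, is in none of the lists; it had 256 and 293 scaled reads in RC, against 37.4 and 31.5 in late RB (2.96 ± 0.14).

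Genes of the end of mitosis and of cell separation rose. Of 24 genes of the M/G1 transition and daughter separation 21 were higher and 1 lower, with a median of 1.38. DSE4, a daughter-specific glucanase, had 3622 and 3643 scaled reads in RC, against 693 and 609 in late RB. These did not overlap, and the change was 2.48 ± 0.10 (limma adjusted p = 1.02e-11). The glucanase-like genes SUN4 and SCW11 changed by 2.44 ± 0.14 and 2.35 ± 0.14, CTS1, the chitinase that splits mother and daughter, by 2.03 ± 0.11, and ASH1, the daughter repressor of HO, by 1.40 ± 0.09. HO itself, the mating-type endonuclease, changed by -0.11 ± 0.17 without a call, as did RME1 at -0.06. TEC1, a transcription factor of filamentous growth, was lower (-0.77 ± 0.06).

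Genes of G2 and mitosis were higher for 25 of 34 members and lower for 1, with a median of 0.39. AMN1, an inhibitor of mitotic exit, rose by 1.69 ± 0.11, the kinase gene KIN3 by 1.16 ± 0.12, the polo kinase gene CDC5 by 0.75 ± 0.09 and the mitotic cyclin gene CLB1 by 0.77 ± 0.09. CLB2, the main mitotic cyclin, changed by 0.27 ± 0.15 and was not called in the fit of all groups (adjusted p = 0.128). CLB2 was called with upper-quartile scaling, with the contrast's libraries alone and without time point 1 (adjusted p = 0.0442, 0.00531 and 0.0469).

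DNA replication and G1/S genes went both ways. The list had 28 of 66 members higher, 14 lower and a median of 0.22, which was 0.13 without late RB library 2. All 6 MCM helicase genes were higher, from MCM4 at 0.55 ± 0.06 to MCM7 at 1.19 ± 0.08, and so were CDC6, the loader of the helicase (1.16 ± 0.19), and RLF2, a chromatin assembly factor subunit (1.32 ± 0.11). MCM7 had 612 and 636 scaled reads in RC, against 288 and 259 in late RB. The G1 cyclin genes CLN1 (-0.75 ± 0.10), CLN2 (-1.10 ± 0.10) and PCL1 (-1.32 ± 0.12) were lower, and so were CDC21, thymidylate synthase (-1.13 ± 0.16), and RNR1, a ribonucleotide reductase subunit (-0.34 ± 0.08). CLN3, another G1 cyclin gene, was called higher by a small margin (0.24 ± 0.10, limma adjusted p = 0.0456). Its call was lost without RC library 1 (adjusted p = 0.120), RC library 2 (0.124) or late RB library 1 (0.285), and with median-ratio scaling (0.0512).

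Histone genes fell, all 10 of 10, with a median of -1.28. HTA2, an H2A gene (YBL003C, chromosome II, 235394 to 235792), had 505 and 561 scaled reads in RC, against 3166 and 3265 in late RB. Its divergent neighbour HTB2, an H2B gene (YBL002W, chromosome II, 236492 to 236887), had 648 and 684 in RC, against 3603 and 3765 in late RB. Neither pair of groups overlapped, and the changes were -2.59 ± 0.09 and -2.47 ± 0.09 (limma adjusted p = 7.61e-12 and 4.39e-11). The other H2A and H2B genes changed less, HTA1 by -0.62 ± 0.08 and HTB1 by -0.82 ± 0.06, and the variant H2A gene HTZ1 least, by -0.41 ± 0.07. HHF2, an H4 gene, was at -2.06 ± 0.08.

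Genes of mitochondria fell, with list medians between -1.52 for the mitochondrial ribosome and -0.51 for the respiratory chain. Of 76 mitochondrial ribosomal protein genes 75 were lower, none higher, with a median of -1.52 and a narrow middle range from -1.67 to -1.35 (quartiles). MRPS9, a small-subunit protein (YBR146W, chromosome II, 535260 to 536096), had 475 and 482 scaled reads in RC, against 2179.6 and 2117 in late RB. The groups lay far apart, and the change was -2.16 ± 0.06 (limma adjusted p = 2.57e-13). MNP1 changed by -2.25 ± 0.11 and MRPL13 by -2.02 ± 0.08, both proteins of the large subunit. MRPL38 was not called, at -1.09 ± 0.52, with 11.9 and 8.11 scaled reads in RC against 24.9 and 19.5 in late RB. Where reads were known in all 4 libraries, the groups did not overlap for 75 of 75 members, against 82.5% of all genes.

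Mitochondrial import and assembly genes were lower for 43 of 47 members and none was higher, with a median of -1.12. COX17, the copper carrier for cytochrome oxidase, had 149.5 and 174 scaled reads in RC, against 875 and 922 in late RB, without overlap. It changed by -2.47 ± 0.12 (limma adjusted p = 4.5e-11), and SCO1, which delivers that copper, by -2.28 ± 0.11. SSC1, the import motor Hsp70, had 5686 and 5585 scaled reads in RC, against a mean of 21729 in late RB (-1.95 ± 0.08). The members without a call were TIM12, TIM18, TIM21 and TIM22, all of the inner-membrane translocases, between -0.23 and 0.15.

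In the TCA cycle 17 of 18 genes were lower and 1 higher, with a median of -1.03. The 1 higher member changed by 2.56, the largest change of the list in size. Among the lower ones were CIT3, a citrate synthase (-1.70 ± 0.25), FUM1, fumarase (-1.50 ± 0.09), and LSC1 of succinyl-CoA ligase at -0.73. ACO1, aconitase, was lower (-1.22 ± 0.20). Respiratory chain and ATP synthase genes were lower for 30 of 40 members with a median of -0.51. Reads were known in all 4 libraries for only 7 of the 18 TCA cycle and 16 of the 40 respiratory genes. The SE of the others rests on the groups whose reads were known. ATP2 and ATP1, the catalytic subunit genes of the ATP synthase, changed by -1.15 ± 0.12 and -1.01 ± 0.11. The paired cytochrome oxidase subunit genes COX5B and COX5A moved apart, COX5B to -1.35 ± 0.12 and COX5A to 0.22 ± 0.07. COX5A and CYC1, iso-1-cytochrome c (0.33 ± 0.08), were the 2 members called higher.

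Storage carbohydrate and sugar-burning genes fell. Trehalose and glycogen genes were lower for 18 of 20 members, with a median of -1.19. Over the 13 members that could be tested without late RB library 1 or 2, or with single-solution genes alone, it was -0.71, -0.64 and -0.67. UGP1, which makes UDP-glucose, had 1796 and 1671 scaled reads in RC, against 5868 and 6136 in late RB (-1.79 ± 0.11). PGM2, phosphoglucomutase, changed by -2.24 ± 0.16, GPH1, glycogen phosphorylase, by -2.13 ± 0.20, the glycogen synthase genes GSY1 and GSY2 by -1.76 ± 0.24 and -1.26 ± 0.18, and the trehalose synthase genes TPS1 and TPS2 by -1.14 ± 0.19 and -1.24 ± 0.19. PIG1, a targeting subunit for glycogen phosphatase, was higher by 0.53 ± 0.12.

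Glycolysis and fermentation genes were lower for 20 of 24 members and higher for 2, with a median of -0.55. With 1 library left out in turn, fewer members could be tested and 46.2% to 57.1% of them were called lower, against 83.3% with all libraries. Over the 11 single-solution members the median was -0.31. The hexokinase genes went opposite ways: HXK1 averaged 9537 scaled reads in RC, against 54185 in late RB (-2.51 ± 0.19), and HXK2 had 1231 and 1282 in RC, against 704 and 745 in late RB (0.79 ± 0.09). TDH1, a glyceraldehyde-3-phosphate dehydrogenase, changed by -1.93 ± 0.13, and PDC1 and ADH1, the main fermentation enzymes, by -1.10 ± 0.08 and -1.33 ± 0.13. The kinases that make the glycolytic signal fructose 2,6-bisphosphate moved apart, PFK27 by 2.23 ± 0.20 from low levels (61.4 and 81.1 scaled reads in RC, 13.4 and 15.2 in late RB) and PFK26 by -0.58 ± 0.19. In hexose transport 6 of 17 genes were higher and 7 lower, beside 32.5% and 29.2% of all genes. HXT2 was at 1.06 ± 0.30 and HXT10 at -1.88 ± 0.24. With 1 library left out, 25% to 31.2% of hexose transport genes were lower, against 41.2% with all libraries. HXT and TDH genes are close relatives, so their reads are uncertain.

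Gluconeogenesis, glyoxylate and acetate genes were lower for 9 of 20 members and higher for 1, with a median of -0.57. ACH1, an acetyl-CoA and CoA transferase, had 1557 and 1598 scaled reads in RC, against 6962 and 6494 in late RB, without overlap (-2.09 ± 0.13). ICL1, isocitrate lyase, was at -1.36 ± 0.16 and PCK1, PEP carboxykinase, at -1.15 ± 0.34. ACS1, an acetyl-CoA synthetase, averaged 37161 scaled reads in RC, against 59159.5 in late RB, and was not called (-0.67 ± 0.32, adjusted p = 0.0945), but was without time point 1 (adjusted p = 0.00023). Fatty acid beta-oxidation and acyl transport genes were lower for 16 of 24 members and higher for 2, with a median of -0.76, which was -0.49 over the 16 tested without late RB library 1. CAT2, a carnitine acetyltransferase, changed by -1.84 ± 0.36, CRC1, the mitochondrial carnitine carrier, by -1.46 ± 0.19 and FOX2, the multifunctional enzyme, by -1.24 ± 0.32. TES1, a peroxisomal thioesterase, had 1520.2 and 1469.8 scaled reads in RC, against 3935 and 3982 in late RB (-1.40 ± 0.16). Of 27 genes of peroxisome formation, the peroxins, 9 were lower and 5 higher, beside 29.2% and 32.5% of all genes. The peroxin median of -0.06 became 0.03 with upper-quartile scaling.

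Stress genes fell, with exceptions that include well-known ones. Of 41 general and oxidative stress genes 31 were lower and 5 higher, with a median of -0.60. Over the 24 members that could be tested without RC library 1 or with single-solution genes alone, it was -0.93 and -0.91. SPI1, a cell wall protein of stationary phase, had 725 and 675 scaled reads in RC, against 3109 and 3226 in late RB, without overlap. It changed by -2.18 ± 0.10 (limma adjusted p = 3.47e-11), the aldehyde dehydrogenase gene ALD3 by -1.81 ± 0.18 and the thioredoxin peroxidase gene TSA2 by -1.69 ± 0.12. Higher in RC were GRE1, a hydrophilin-like stress protein (1.29 ± 0.22), SIP18, a phospholipid-binding stress protein (0.69 ± 0.22), CTT1, whose call is described with the markers, and the stress regulators MSN2 (0.37 ± 0.09) and MSN4 (0.42 ± 0.14).

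Heat shock and chaperone genes were lower for 19 of 29 members and higher for 3, with a median of -0.57. Without late RB library 1 or 2 only 16 of these could be tested, with medians of -0.37 and -0.27. The 3 largest falls were those of SSC1, HSP60 (-1.74 ± 0.09) and HSP10 (-1.40 ± 0.08), which are chaperones of the mitochondrial matrix. Among cytosolic chaperones, HSP82, an Hsp90, changed by -1.07 ± 0.23, SSA4, an Hsp70, by -0.78 ± 0.13 and HSP104, the disaggregase, by -0.57 ± 0.28 without a call. SSA3, an Hsp70 (1.31 ± 0.19), YDJ1, a J-domain cochaperone (0.46 ± 0.07), and SSE1, an exchange factor (0.18 ± 0.07), were higher. SSA genes are near-identical and may share reads. HSP12 averaged 68112 scaled reads in RC, against 57625 in late RB.

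Proteasome genes were higher for 18 of 33 members, with a low median of 0.17, while RPN4, the transcription factor that induces them, was lower (-0.70 ± 0.07), with 2331 and 2375 scaled reads in RC against 3824 and 3836 in late RB. With upper-quartile scaling 87.9% of proteasome genes were called higher, against 54.5%. Autophagy and vacuolar protease genes were lower for 14 of 38 and higher for 2, with a median of -0.22. Of all genes 29.2% were lower and 32.5% higher. PRC1, carboxypeptidase Y, changed by -0.65 ± 0.10 and ATG1, the kinase that starts autophagy, by 0.63 ± 0.08. The share of lower autophagy genes, 36.8%, was 14.7% to 20.6% with 1 library left out and 18.4% with upper-quartile scaling, where the median was -0.13.

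The iron regulon and the cell wall were split. FIT2, a cell wall mannoprotein that holds siderophores, had 97.1 and 115 scaled reads in RC, against 784 and 789.7 in late RB (-2.89 ± 0.14), whereas FTR1, the high-affinity iron permease, was higher by 0.91 ± 0.05. In all, 6 of 25 iron genes were higher and 10 lower, beside 32.5% and 29.2% of all genes. Of 37 cell wall genes 13 were higher, led by EXG1, an exoglucanase (1.64 ± 0.08), UTR2, a chitin crosslinker (1.54 ± 0.10), and PIR1 (1.43 ± 0.10), and 17 were lower, among them the mannoprotein genes CWP1 (-1.61 ± 0.15) and TIR1 (-1.90 ± 0.48).

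Among 45 genes of histone acetyltransferases, deacetylases and TAF14 complexes 24 were higher and 6 lower, with a median of 0.23. TAF14 had 742 and 688 scaled reads in RC, against 523 and 491 in late RB, without overlap (0.49 ± 0.06, limma adjusted p = 3.22e-06). ELP3, the catalytic subunit of Elongator, rose by 1.66 ± 0.10, the sirtuin genes HST4 and HST3 by 1.20 ± 0.18 and 0.82 ± 0.09, and YAF9, a YEATS protein like TAF14, by 0.78 ± 0.13. GCN5, the main H3 acetyltransferase, changed by -0.11 ± 0.10 and SAS3, the enzyme of NuA3, by -0.00 ± 0.08, both without a call. RPD3, a deacetylase, was called at -0.17 ± 0.06, close in size to the 0.11 of the scaling shift.

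Of 23 purine genes 10 were higher and 6 lower, and the median of -0.00 became 0.10 with upper-quartile scaling. GUA1, GMP synthetase, rose by 1.50 ± 0.08, while IMD2, an IMP dehydrogenase, was lower (-1.41 ± 0.13). In termination and RNA decay 6 of 19 members were higher and 6 lower. NRD1 and HRP1, RNA-binding proteins of transcription termination and 3' end formation, were lower (-1.67 ± 0.09 and -0.86 ± 0.07), and PUF3, which binds messenger RNAs for mitochondrial proteins, changed by -0.82 ± 0.08. Spindle and kinetochore genes had 6 of 40 higher and 6 lower, with TUB1, alpha-tubulin, at -0.90 ± 0.07. ER folding and secretion genes had 8 of 36 higher and 6 lower. Meiosis genes had 4 of 21 higher and 8 lower, with the kinase gene SPS1 at -1.36 ± 0.16. Phosphate and zinc genes had 7 of 20 higher and 3 lower, and ion pump genes 3 of 11 each way, with PMA2, a minor proton pump, at -0.59 ± 0.13. The counts of these lists stand beside 32.5% higher and 29.2% lower over all genes.

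The step before, from early to late RB, shares the late RB libraries with the step into RC, so the values are set side by side without a test between them. In that step 2612 genes (43.6%) were called, 1368 (22.9%) higher and 1244 (20.8%) lower in late RB. Ribosomal protein genes had been called lower, 68 of 75 of the large and 46 of 55 of the small subunit (medians -0.60 and -0.57). Ribosome assembly genes had stayed near 0, with 7 LSU members called each way and a median of -0.01. Heat shock genes had a median change of 1.52 from early to late RB and then of -0.57 into RC. Stress genes had 1.09 and then -0.60, and beta-oxidation genes 1.11 and then -0.76. Of the 24 M/G1 genes 18 were called higher and 1 lower from early to late RB, with a median of 0.54, and 21 higher and 1 lower into RC, with a median of 1.38. Mitochondrial ribosomal genes moved little before, with 16 of 76 higher and a median of 0.07, and fell into RC.

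Single genes show the same contrast of steps. AGP1 changed by -3.30 from early to late RB and by 3.12 into RC, PUT1 by -3.23 and then 2.23, and GLN1 by -2.78 and then 3.15. SPI1 changed by 1.74 and then -2.18, and NRD1 by 2.65 and then -1.67. SSA3 changed by 4.12 and then 1.31, upward both times, and DSE4 by 1.52 and then 2.48. MEP2 and DAL80 were called lower both times, MEP2 by -2.03 and then -1.42.

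**Figure D4:**
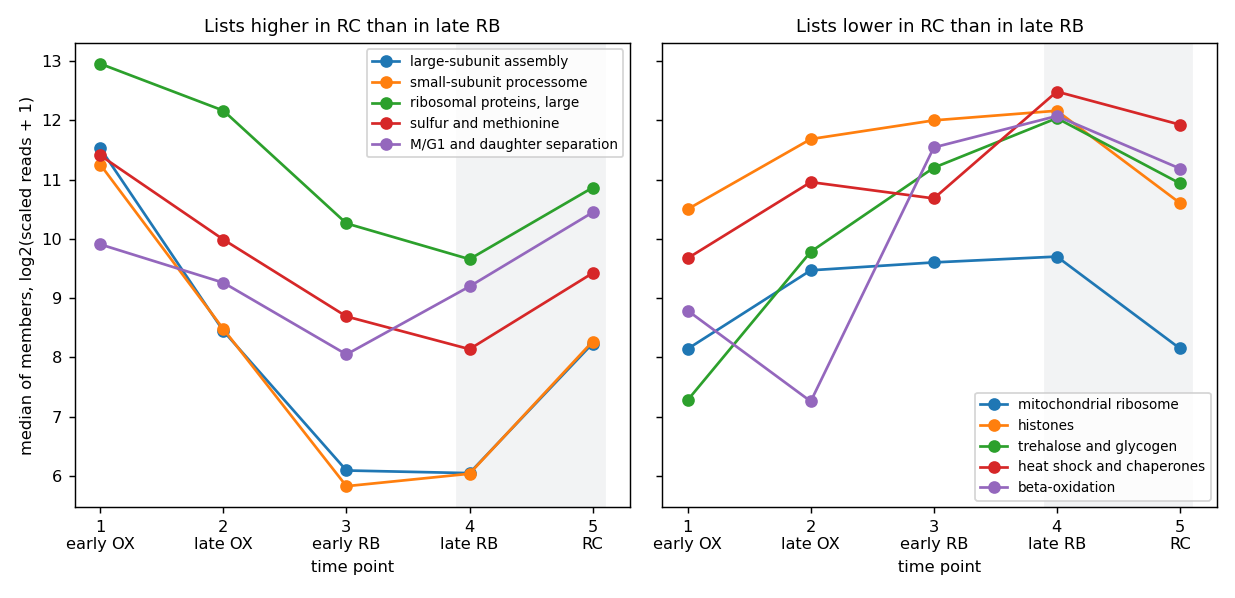
Median level (log2 of scaled reads + 1, not per length, so to be read along a list) of 10 gene lists in wild type at time points 1 to 5, with ribosome, sulfur and cell separation lists on the left and mitochondrial ribosome, histone, storage carbohydrate, heat shock and beta-oxidation lists on the right. The LSU assembly median stands at 6.09 at time point 3, 6.05 at 4 and 8.23 at 5, and that of the mitochondrial ribosome at 9.60, 9.70 and 8.15.

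In level, the assembly medians in RC came only part of the way back to those of early OX and lay near those of late OX. The LSU assembly median was 11.53, 8.45, 6.09, 6.05 and 8.23 (log2 scaled reads) at time points 1 to 5. Large-subunit ribosomal proteins ran 12.96, 12.17, 10.26, 9.66 and 10.87. The mitochondrial ribosome ran 8.14, 9.47, 9.60, 9.70 and 8.15, so that its RC median lay beside that of early OX. The histone median was 10.50 in early OX, 12.16 in late RB and 10.61 in RC. Trehalose and glycogen genes reached 12.04 in late RB and 10.94 in RC, against 7.28 in early OX. The libraries of early OX in wild type spread most of all groups, with a median SD of 0.122.

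The same step in the TAF14[W81A] mutant, in 4 libraries of its own, called 2704 genes (45.2%), 1461 (24.4%) higher in RC and 1243 (20.8%) lower. Across genes the log2 changes of mutant and wild type had a Pearson r of 0.793, a description over genes that are not independent. Of the 2276 genes called in both genotypes, 2196 had the same direction and 80 the opposite. The test of the difference, mutant step minus wild-type step, called 1364 genes (22.8%), 489 (8.17%) higher and 875 (14.6%) lower. The count of higher differences was 817 without time point 1, a fit added after the data were seen, and 270 to 357 with 1 library left out in turn. In 1181 of the 1234 genes called both in this test and in the wild-type step, the difference ran against the wild-type change. Such genes include smaller changes in the mutant and changes in the opposite direction, of any size. The choice of genes by the wild-type step favours this count. Genes more than 2-fold higher in wild-type RC had a median change of 0.77 in the mutant, against 1.48 in wild type; these genes were chosen by the wild-type step, so the pair is a description.

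Ribosome genes differed in most members. LSU assembly genes changed by a median of 0.95 in the mutant, against 2.18 in wild type, and the difference was called lower in 60 of 68. SSU processome genes changed by 1.04 in the mutant, against 2.07 in wild type, with 49 of 57 differences called lower, and large-subunit ribosomal proteins by 0.44 against 1.13, with 71 of 75. The LSU assembly median was 8.41 in mutant RC and 8.23 in wild-type RC, and 7.43 in mutant late RB, against 6.05 in wild-type late RB. In early RB it already stood at 7.32 in the mutant, against 6.09 in wild type. SSF1 had 344 and 345 scaled reads in mutant RC and 123 and 92.3 in mutant late RB, so that its mutant step was 1.68, against 3.63 in wild type (difference -1.95 ± 0.23).

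The opposite held for stress genes. General stress genes changed by a median of 0.11 in the mutant, against -0.60 in wild type, and the difference was called higher in 26 of 41 and lower in none. Heat shock genes changed by 0.32 in the mutant, against -0.57 in wild type, with 15 of 29 differences called higher. Their late RB medians were lower in the mutant: 10.46 against 11.65 for stress genes and 11.56 against 12.49 for heat shock genes. In early RB they were 9.66 in the mutant, against 10.40 in wild type, for stress genes and 10.46 against 10.68 for heat shock genes. HSP12 changed by 2.75 in the mutant and by 0.24 in wild type (difference 2.51 ± 0.19), and HSP30, a membrane stress protein, by 1.28 and -1.24 (difference 2.52 ± 0.26). Histone genes had a median change of -0.47 in the mutant, against -1.28 in wild type, with 9 of 10 differences called higher. Sulfur genes had a median of -0.19 in the mutant, against 0.75 in wild type, with 22 of 30 differences called lower; CYS3, cystathionine gamma-lyase, changed by -1.05 in the mutant and by 0.82 in wild type.

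Some groups made nearly the same step in both genotypes. The mitochondrial ribosome had median changes of -1.45 in the mutant and -1.52 in wild type, with 2 of 76 differences called. Mitochondrial import genes had medians of -1.11 and -1.12, with 3 of 47 differences called, M/G1 separation genes 1.28 and 1.38, with 3 of 24, and beta-oxidation genes -0.84 and -0.76, with 3 of 24. A difference that was not called is not shown to be absent. MRPS9, for example, changed by -2.06 in the mutant and by -2.16 in wild type, a difference of 0.11 ± 0.08 (limma adjusted p = 0.415). In G2 and mitosis the mutant median was 0.04, against 0.39 in wild type, with 20 of 34 differences called lower.

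**Figure D5:**
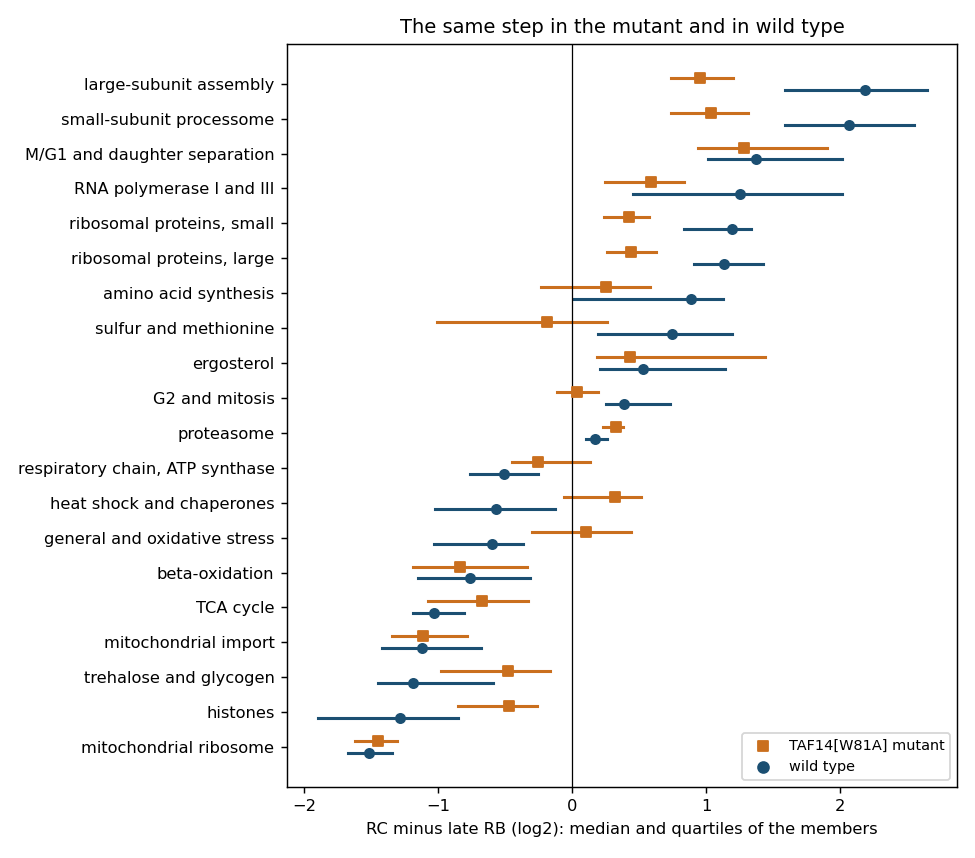
Median and quartiles of the log2 change, RC minus late RB, over the tested members of 20 gene lists, mutant above wild type in each pair. The ribosome lists lie nearer to 0 in the mutant, the medians of heat shock and stress lie above 0 in the mutant, with quartiles on both sides of it, and below 0 in wild type, and the mitochondrial ribosome lies at -1.45 and -1.52.

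The deposited H3K9ac signal (acetylated lysine 9 of histone H3), 1 library in late RB, gave a readout that the RNA contrast did not use, with no replicate and an unstated scale. It was averaged over bins 7 to 16 of each gene, around the highest mean signal at bin 11, a window chosen after seeing the profile. The late RB median was 0.682 over genes higher in RC, 1.01 over genes lower in RC and 0.861 over genes not called. In the 1 library of early RB the medians were 0.743, 1.12 and 0.941, in the same order. The median changes from early to late RB were -0.05, -0.07 and -0.06, so the order was not particular to late RB. Because genes lower in RC were also more abundant in late RB, the late RB medians were taken within 4 equal bins of late RB level per length. From the lowest to the highest bin they were 0.597, 0.724, 0.777 and 0.654 for genes higher in RC. For genes lower in RC they were 0.818, 0.866, 0.969 and 1.17. The order was thus alike in the 4 bins. In late RB the median of all genes was 0.834. SSU processome genes had a median of 0.430 and large-subunit ribosomal protein genes 0.468, while respiratory chain genes had 1.60, beta-oxidation genes 1.65 and histone genes 2.25. Lists with most members higher in RC were not all low: ergosterol genes had 0.907 and proteasome genes 1.26. M/G1 genes had 0.795 and amino acid synthesis genes 0.793, near the median of all genes. The mitochondrial ribosome had 0.952. RC itself has no ChIP library in these data, so acetylation in RC was not analysed here.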

How the data were processed

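RNA was measured by sequencing with a directional kit, per the labels' protocols. The authors deposited 1 table of RNA with a log2 level per gene, genotype and time point, in which the 2 libraries of a group are combined. Per the submitters' processing notes the tools were BWA, DESeq2, MACS2 and deepTools and the build was sacCer3; versions and roles are not given in the sources used here. The deposited ChIP signal is a profile per gene whose scale is not stated, and only the H3K9ac signal was used. The authors' deposited log2 fold changes and p-values were not used.

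From each deposited log2 level the whole reads of the 2 libraries behind it were recovered. A level was taken as matched within 1.15 times its rounding. Of 6008 genes, 5438 came out whole at their RefSeq length and 564 at a searched length; with lengths shuffled between genes 0.957% came out whole. In a control, lengths were hidden for 500 genes, and 491 were found, all of them right. The recovery and the fit were tested on simulated data. Reads with several solutions in a group entered as that group's mean, so the SE of such a gene rests on its other groups. Of the genes, 22 had no group with a single solution and were not tested.

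Because the table holds log2 levels, no count test was the main one: limma 3.58.1 with a trend in the prior variance was run in R 4.3.3 on log2(scaled reads + 1), a pseudocount of 1, with a mean for each of 10 groups over 20 libraries. Fold changes on this scale understate the change of low genes. Residual df were 10 for the 5440 genes with a single read solution in every group and fewer for the others. Prior df were 6.01, and p-values were adjusted over 5986 genes. The estimates differed from the differences of deposited levels by a median of 0.00167 (log2) and by at most 0.956. The genotype difference is a contrast of the same fit.

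The step, the lists and the naming rule were all chosen with earlier results of these data known, so no list is independent evidence of its direction. The named genes are the largest changes past the threshold among genes averaging 50 scaled reads or more whose libraries do not overlap, with 15 each way, the 3 called members of each list that changed most, the phase markers and 11 genes fixed by name, and the 8 largest genotype differences each way. Other members given as examples were chosen after their values were seen. Gene names and positions come from RefSeq on the sacCer3 assembly. Alternatives were other pseudocounts, a filter on low values, upper-quartile and median-ratio scaling, the contrast's libraries alone, single-solution genes alone, and each library left out. Counting error sets the precision of low genes. Of 44 lists, 16 members with no unambiguous reads were left out of all counts.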

Additional observations from a re-analysis of the deposited data

Results flagged for a closer look

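The step from late RB to RC differed between genotypes, by the test of the difference itself, in 1364 of 5986 genes (limma, adjusted p under 0.05). The 8 largest positive differences among named genes (mutant step minus wild-type step, log2) were HSP30, a membrane stress protein, at 2.52, TKL2, a transketolase, at 2.48, GSY2, a glycogen synthase, at 1.73, HBT1, a protein of polarised cells, at 1.73, FIT2 at 1.69, ALD3 at 1.66, ERR3, an enolase-like gene with near-identical copies, at 1.65, and CIN5, a stress transcription factor, at 1.58. TKL2 changed by 0.76 in the mutant and by -1.71 in wild type, where it had 1749 and 1698 scaled reads in RC, against 5466 and 5849.9 in late RB. GSY2 changed by 0.47 in the mutant and by -1.26 in wild type.

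The 8 largest negative differences were SDA1, a factor of 60S export, at -2.02, TSR2, of small-subunit maturation, at -1.99, UTP23, of the SSU processome, at -1.97, SSF1 at -1.95, TRM11, a tRNA methyltransferase subunit, at -1.94, NOP2, an rRNA methyltransferase, at -1.91, CYS3 at -1.86 and MET5, a sulfite reductase subunit, at -1.85. SDA1 changed by 0.66 in the mutant and by 2.68 in wild type. MET5 changed by -1.43 in the mutant and by 0.42 in wild type, where it had 2309 and 2507 scaled reads in RC, against 1886 and 1713 in late RB. These genes were picked for the size of their difference, so the sizes are a description.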

How the results depend on the processing

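Over the alternatives, 1846 of 1862 values of the 167 named genes in the wild-type step kept direction and call; 9 lost the call (CLN3, MET6 and CTT1), 7 gained it (ACS1, ATG8, HSP12 and CLB2) and 0 reversed. All 255 values of the 16 genes with the largest genotype differences kept both. Of the list shares, 499 stayed within 1.5 times and 29 did not. With 1 library left out, fewer genes could be tested, and 1599 to 1691 were called higher in RC and 1357 to 1404 lower; in the mutant 1069 to 1200 were higher and 890 to 997 lower, and of the genotype differences 608 to 767 were lower and 270 to 357 higher, against 489 higher with all libraries. Higher genotype differences were 897 with the contrast's libraries alone and 817 without time point 1, a fit chosen after seeing the data. Higher calls made up 52.7% of calls and 62.4% with upper-quartile scaling.

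With upper-quartile scaling the share called higher was 38.9% of ER folding (22.2% in the fit of all groups), 43.8% of fatty acid synthesis (25%), 45.5% of ion pumps (27.3%), 87.9% of proteasome (54.5%) and 35% of spindle genes (15%), and 18.4% of autophagy genes were lower (36.8%). With the contrast's libraries alone 55.9% of autophagy genes were lower and 54.5% of ion pumps higher. Without time point 1, 45.5% of ion pumps and 50% of charging markers (33.3%) were higher. With single-solution genes alone, which leaves 5 large-subunit ribosomal protein genes, 40% of these were higher (94.7%), as were 50% of charging markers. With 1 library left out, lower shares ran from 14.7% to 20.6% for autophagy, 46.2% to 57.1% for glycolysis (83.3%) and 25% to 31.2% for hexose transport (41.2%). Higher shares ran from 11.1% to 22.2% for ion pumps, 0% to 0% for charging markers, 20% to 30% for phosphate and zinc (35%) and 33.3% to 45% for phospholipids (50%). Of the 6 charging markers only 3 could be tested without an RC library. Only 2 could be tested without a late RB library or with single-solution genes alone. The cause was not tested, beyond the smaller numbers of genes or libraries named. No paired analysis was possible because the recovered libraries of a group carry no letter A or B.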

Other observations

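Pheromone and mating genes are in no list and were collected after their values were seen. The alpha-factor gene MF(ALPHA)2 had 75.3 and 72.9 scaled reads in RC, against 702 and 720.3 in late RB (-3.24 ± 0.15), and SAG1, the alpha-agglutinin, had 581 and 582 in RC, against 4274 and 4410.5 in late RB (-2.90 ± 0.12). STE3, the receptor for a-factor, had 1017 and 1098 in RC, against 2389 and 2461 in late RB (-1.20 ± 0.08). Of 7 genes specific to a cells, ASG7 (1.01) and AGA2 (0.96) were called higher, none was called lower and 5 were not called. Of 16 genes used by both mating types, 4 were higher, among them FAR1, the pheromone arrest factor (0.91), 7 were lower, among them AGA1, the agglutinin anchor (-0.91), and 5 were not called. Over all genes 32.5% were higher and 29.2% lower.

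Outside the lists, 4610 genes were tested, of which 246 were called more than 2-fold higher and 245 more than 2-fold lower. RIX7, a ribosome assembly ATPase (2.91), PRP43, a helicase of splicing and ribosome assembly (2.55), and LTV1, of small-subunit export (2.52), were among the 12 highest. MAM33, a mitochondrial matrix protein, had 348 and 359 scaled reads in RC, against 2212 and 2351 in late RB (-2.69), and SUC2, invertase, had 815 and 828 in RC, against 3555 and 3716 in late RB (-2.14). MEF1, a mitochondrial elongation factor, changed by -2.02 and CMC1, of cytochrome oxidase assembly, by -2.00.

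For 16 list members with no unambiguous reads, there was no test; among them the authors' deposited levels give INO1, inositol phosphate synthase, a difference of 1.53 (log2, RC minus late RB), RPS13 of 1.20, GCN4, the amino acid control activator, of 0.25, and FBA1, aldolase of -0.44.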
